A study of Homo sapiens with 4 samples.

Results

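The TRIB2 promoter and an anchor 400 kb upstream of it on chromosome 2 were the 2 anchors with the most H3K27ac-associated loops in M14 melanoma cells, both with and without STAG2 knockdown. A loop was counted here if one of its 5 kb anchors was the bin with the TRIB2 transcript starts, chr2:12855001-12860000 (hg19), or the bin chr2:12455001-12460000, called the hub anchor below. These loops numbered 86 of the 27289 in the WT list and 76 of the 25621 in the STAG2-KD list. Over both lists they were 114 distinct loops of 42529.

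The data came from H3K27ac HiChIP, which ligates neighbouring chromatin fragments and pulls down the ligation products by an antibody. The antibody recognised histone H3 acetylated on lysine 27, which marks active promoters and enhancers. The cells were M14, a human melanoma line kept under puromycin, in which doxycycline switches on a hairpin that targets STAG2, one of the cohesin subunits. Cells cultured for 5 days with doxycycline were STAG2-KD and cells without it were WT, so that WT also carried the hairpin, and an effect of doxycycline itself cannot be told apart from the knockdown. The labels name 2 samples per group, and 1 loop list per group was analysed, which allows no test between the groups.

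TRIB2 encodes Tribbles pseudokinase 2, a scaffold protein that brings the ubiquitin ligase COP1 to substrates such as the transcription factor C/EBPα and that is known to restrain FOXO factors in melanoma. Cohesin extrudes chromatin into loops, many of which stop at bound CTCF, and it carries either STAG1 or STAG2. Enhancers far from a promoter can meet it through such loops or through contacts among acetylated elements themselves.

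TRIB2 (ENSG00000071575) is read from the plus strand of chromosome 2, between 12857036 and 12882860. All of its annotated transcript starts fall into the same 5 kb bin, which also holds starts of the long noncoding RNA genes ENSG00000286427, on the minus strand, and ENSG00000261117, on the plus strand. A loop to this bin therefore cannot be assigned to one of the 3 genes. The hub anchor lies in an intron of MIR3681HG, a long noncoding RNA gene from 11974052 to 12843039 on the plus strand, and holds no annotated exon or transcript start.

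The promoter is shown because it is the part of the TRIB2 anchor that the annotation places at the gene start. The RefSeq promoter of 300 bases, from 250 before to 50 after the start, was taken from a GRCh38.p14 table and matched once in the hg19 sequence, at chr2:12856812-12857111 on the plus strand. Capitals mark matches to the GC box GGGCGG and to the forkhead motif TGTTTAC on either strand.
TRIB2 promoter: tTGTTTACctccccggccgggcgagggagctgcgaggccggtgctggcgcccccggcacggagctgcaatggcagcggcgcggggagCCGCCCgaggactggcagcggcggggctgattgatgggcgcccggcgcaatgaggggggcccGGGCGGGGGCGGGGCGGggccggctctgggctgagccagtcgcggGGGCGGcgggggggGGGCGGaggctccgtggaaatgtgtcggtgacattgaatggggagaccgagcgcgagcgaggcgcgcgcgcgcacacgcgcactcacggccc
The stretch held 6 GC boxes, 2 of which share a base, and 1 forkhead match. A GC box occurred in 45% and the forkhead letters in 3.42% of the 35116 promoters of this length in the table. No match was found for CCAAT, which 34.6% of promoters held, for TATAAA (11.5%), for the M-box CATGTG (11.1%) or for the AP-1 letters TGANTCA (7.71%). With 42 CpG dinucleotides and 77.3% G and C, the promoter had more CpG than 94.2% of promoters. The whole TRIB2 bin had 279 CpG, more than 98.8% of the 30601 distinct anchors of both lists, whereas the hub anchor had 35, more than 18.9% of anchors.

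The TRIB2 start carried 44 WT loops and 42 STAG2-KD loops. No other anchor of either list had as many. The hub anchor came second in both lists, with 43 loops in WT and 35 in STAG2-KD. The third place was at 34 loops in WT, in a bin of chromosome 8, and at 30 in STAG2-KD, in a bin of chromosome 1. Both anchors were chosen by their loop numbers in these same lists, including the loops private to one list, so these counts are a description. The STAG2-KD count was 95.5% of the WT count at TRIB2 and 81.4% at the hub anchor, compared with 93.9% for the complete lists and 96.1% for chromosome 2. In the earlier 50% of the chromosome 2 lines the hub anchor had 38 loops in WT and 21 in STAG2-KD. What the order of lines means is not explained in the sources used here, so it cannot be read as loop strength. The lists give no read counts, and fewer loops cannot be told apart from fewer reads.

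**Figure D1:**
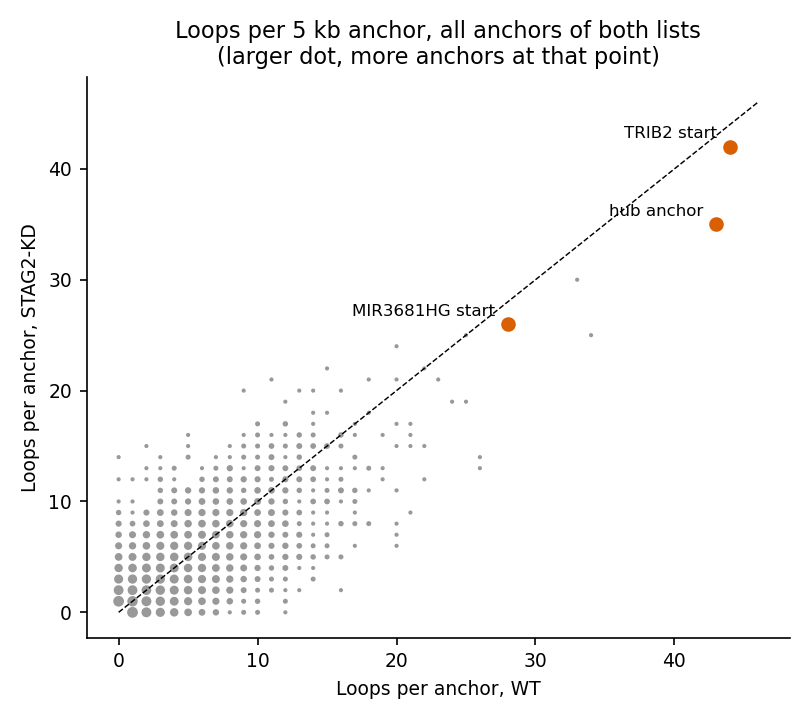
Loops per 5 kb anchor in WT (horizontal axis) and STAG2-KD (vertical axis) for all 30601 anchors, with larger dots where more anchors coincide and a dashed line of equal counts. The TRIB2 start (44 and 42) and the hub anchor (43 and 35) lie apart at the upper right, both below the line.

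The lists give little resolution around the 2 anchors. The bins directly beside the TRIB2 bin held 0 loops in both lists. Beside the hub anchor, the next bin downstream held 3 loops in WT and 1 in STAG2-KD, and the bin upstream held 0. Neighbouring partners of one anchor were never 1 bin apart anywhere in either list, whereas 1288 pairs in WT and 1292 in STAG2-KD were 2 bins apart. The lists thus never join an anchor to 2 directly adjacent bins. Adjacent bins can still both be anchors, as the hub anchor and its next bin downstream were. Further off, the bins from 12440001 and 12475001 beside the hub anchor and those from 12840001 and 12875001 beside TRIB2 had loops of their own, from 9 to 17 in WT.

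Most contacts of both anchors were far, beyond the reach of a usual loop in these lists. The median distance at the TRIB2 start was 422 kb in WT (quartiles 236 and 664 kb) and 355 kb in STAG2-KD (202 and 621 kb). All loops had medians of 90.0 and 85.0 kb. WT loops of the hub anchor had a median of 355 kb and its STAG2-KD loops one of 305 kb. Up to 500 kb, TRIB2 had 25 loops in WT and 28 in STAG2-KD, so that WT led only among the longer loops. Among the anchors with at least 10 loops, 483 in WT and 393 in STAG2-KD, the middle anchor had a median of 160 kb in each list. A longer median than that of TRIB2 was found at 19 of these anchors in WT and at 39 in STAG2-KD.

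The TRIB2 start looked mainly upstream, over the body of MIR3681HG. In WT 35 of its 44 partners were upstream (79.5%, 95% exact Clopper-Pearson interval 64.7 to 90.2), and in STAG2-KD 31 of 42 (73.8%, 58.0 to 86.1). The intervals of the 2 lists overlapped. The hub anchor had partners on both sides, with 25 upstream and 18 downstream in WT and 16 upstream and 19 downstream in STAG2-KD. All such intervals cover the counting of loops alone, and loops of one anchor are not independent of each other.

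Sharing between the lists was read against the background of all loops. By the criterion of the same bins at both anchors, 62.0% of all WT loops had no STAG2-KD counterpart and 59.5% of all STAG2-KD loops had no WT counterpart. At the TRIB2 start 27 loops were found in both lists, 17 in WT alone and 15 in STAG2-KD alone. The shared loops were 61.4% of its WT loops (45.5 to 75.6) and 64.3% of its STAG2-KD loops (48.0 to 78.4), whereas over the complete lists 38.0% and 40.5% were shared. The hub anchor had 22 loops in common between the lists, 21 in WT alone and 13 in STAG2-KD alone, so that 51.2% of WT loops (35.5 to 66.7) and 62.9% of STAG2-KD loops (44.9 to 78.5) were shared. Among anchors with at least 10 loops, the middle anchor shared 50.0% in either list, and 101 of the 483 in WT shared a larger part than TRIB2 did.

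The same comparison was made within classes of distance. Of the loops shorter than 200 kb, 14 of 17 WT loops (82.4%, 56.6 to 96.2) and 14 of 22 STAG2-KD loops (63.6%, 40.7 to 82.8) of the pair were shared. Of all loops in this class 39.6% and 42.6% were shared. For loops of 200 kb up to 500 kb, 21 of 41 WT loops of the 2 anchors were shared (51.2%, 35.1 to 67.1) and 21 of 30 STAG2-KD loops (70.0%, 50.6 to 85.3). All loops of that class were shared at 33.1% in WT and 35.7% in STAG2-KD. From 500 kb up to 1100 kb, 13 of 28 WT loops (46.4%, 27.5 to 66.1) and 13 of 24 STAG2-KD loops (54.2%, 32.8 to 74.4) of the pair were shared. The complete lists had 31.9% and 27.2% there. These intervals are no test against the lists, because loops of one anchor are not independent and both anchors were chosen by their loop numbers. The list values are also not matched for loop number, and the middle anchor with at least 10 loops shared 50.0%.

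Part of the private loops had a close neighbour in the other list. If loops within 1 bin at both anchors are matched, 56.6% of all WT loops and 53.8% of all STAG2-KD loops remain private, and within 2 bins 50.7% and 47.2%. Of the 17 WT-only partners of TRIB2, 6 lay within 2 bins of a STAG2-KD partner, such as the bin from 12100001 in WT beside the bin from 12105001 in STAG2-KD. The other 11 had no such neighbour. Of the 15 STAG2-KD-only partners, 8 had a WT partner within 2 bins and 7 had none. At the hub anchor 3 of 21 partners private to WT and 4 of 13 private to STAG2-KD had a neighbour within 2 bins.

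**Figure D2:**
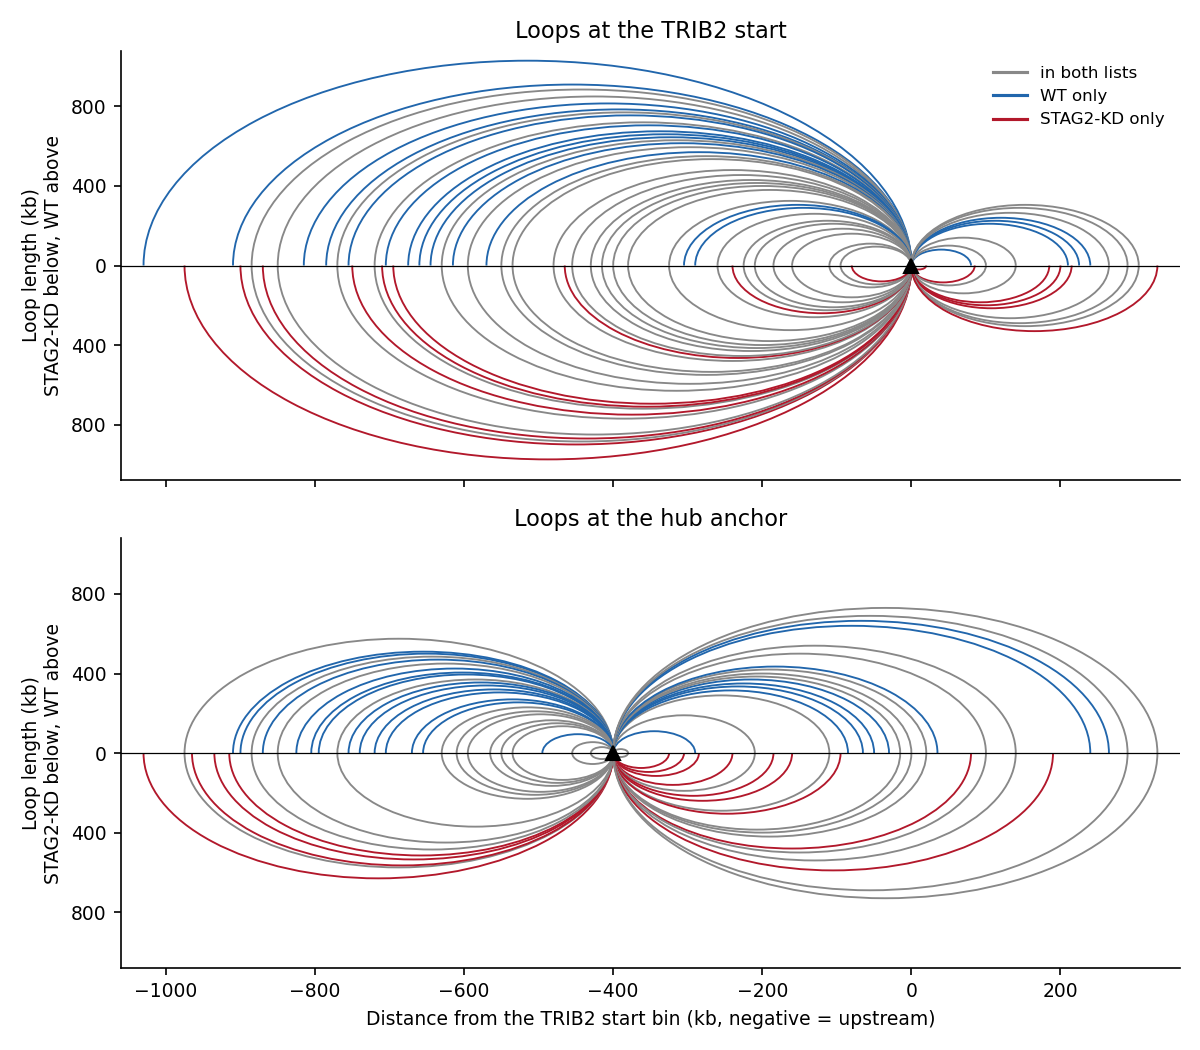
Loops of the TRIB2 start (upper panel) and of the hub anchor (lower panel) as arcs from the anchor (black triangle) to the partner bin, by distance from the TRIB2 bin in kb, with the height of an arc giving its length. WT loops are drawn above the line and STAG2-KD loops below it, grey where both lists held the loop and coloured where one list did. Blue WT-only arcs crowd between the hub anchor and the upstream end.

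The loop that joins the 2 anchors to each other, at 400 kb, was in both lists. Apart from it, the pair had 78 distinct partner bins, of which 37 were used by either anchor in both lists, 26 in WT alone and 15 in STAG2-KD alone. The anchors shared many partners. In WT, 22 bins were partners of both, 51.2% of the TRIB2 partners and 52.4% of the hub partners. In STAG2-KD, 23 bins were partners of both, 56.1% of the TRIB2 partners and 67.6% of the hub partners.

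A set of 15 partner bins looped to both anchors in both lists. Of these, 9 lay upstream of the hub anchor, 3 between the anchors and 3 downstream of TRIB2. They included the bin from 11970001, 885 kb upstream of TRIB2, which holds the first start of MIR3681HG. They also included the bin from 12305001 inside MIR3681HG and the bin from 13145001, 290 kb downstream of TRIB2, at a start of the long noncoding RNA gene ENSG00000225649. The other 63 bins were held in 1 to 3 of the 4 combinations of anchor and list.

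Private partners were unevenly placed along the region. Upstream of the hub anchor, TRIB2 had 23 partners in WT and 19 in STAG2-KD, with 11 WT-only and 7 STAG2-KD-only. In the same stretch the hub anchor reached 25 partners in WT, 13 of them WT-only, and 16 in STAG2-KD, 4 of them STAG2-KD-only. Between the anchors, TRIB2 had 11 partners in each list with 9 shared, and the hub anchor had 9 WT and 11 STAG2-KD partners with 4 shared. Downstream of TRIB2, TRIB2 had 9 and 11 and the hub anchor 8 and 7, with 5 shared for each anchor. The pair had fewer loops in STAG2-KD in the upstream stretch, and in the other stretches its counts differed by at most 2.

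The private loops of TRIB2 also differed in length. WT-only loops had a median of 645 kb (80.0 to 1030 kb), shared loops of 380 kb (95 to 885 kb) and STAG2-KD-only loops of 330 kb (20 to 975 kb). Of the TRIB2 loops, 19 in WT and 14 in STAG2-KD were longer than 500 kb. The hub anchor went the other way, with 7 in WT and 9 in STAG2-KD. So did the complete lists, with 890 loops in WT and 1045 in STAG2-KD from 500 kb up to 1100 kb. The shortest loop of TRIB2, at 20 kb to the bin from 12875001 inside the gene itself, was found in STAG2-KD alone. At the hub anchor the medians were closer, at 355 kb for WT-only, 330 kb for shared and 305 kb for STAG2-KD-only loops.

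Partner bins were joined into clusters when their starts lay at most 10 kb apart, which gave 50 clusters, 37 of them of a single bin. Loops of both lists reached 40 clusters, WT loops alone 8 and STAG2-KD loops alone 2. The WT-only clusters with the most loops were chr2:12030001-12075000 and chr2:12180001-12215000, both within MIR3681HG. Each held 5 bins and 5 loops of the pair in WT and none in STAG2-KD, shared out over both anchors, with 2 from TRIB2 and 3 from the hub anchor in the first and 3 and 2 in the second. To any anchor, the first stretch had 5 loops in WT and 0 in STAG2-KD and the second had 14 and 7, so the second was not empty in STAG2-KD. With partners up to 20 kb apart joined, 20 clusters formed and all 20 were reached in both lists, so the clusters of one list rest on the narrower limit. Over both lists the cluster with the most loops was chr2:12135001-12165000, where TRIB2 had 2 loops in WT and 3 in STAG2-KD and the hub anchor had 2 in WT and 0 in STAG2-KD. Downstream of TRIB2, the cluster chr2:13040001-13085000 was reached by TRIB2 with 2 loops in WT and 3 in STAG2-KD and by the hub anchor with 1 loop, in STAG2-KD.

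Loops around the pair stayed within a common range in both lists. All partners lay between 11825001 and 13190000, a range of 1365 kb. The window from 11.5 to 14 Mb held both anchors of 207 WT loops and 162 STAG2-KD loops, each of which lay completely inside this range, and 0 loops of either list crossed either of its edges. These edges are the outermost partners of the pair in these same lists. Beyond them, the only anchors of the window were the bins from 11510001 and 11605001, both upstream. How often other positions are crossed by 0 loops was not counted. The number of loops spanning a bin reached 94 in WT and 81 in STAG2-KD near the hub anchor. It fell from 74 in WT and 73 in STAG2-KD at the bin from 12820001, just upstream of TRIB2, to 39 and 46 at the bin from 12860001, just past its start.

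**Figure D3:**
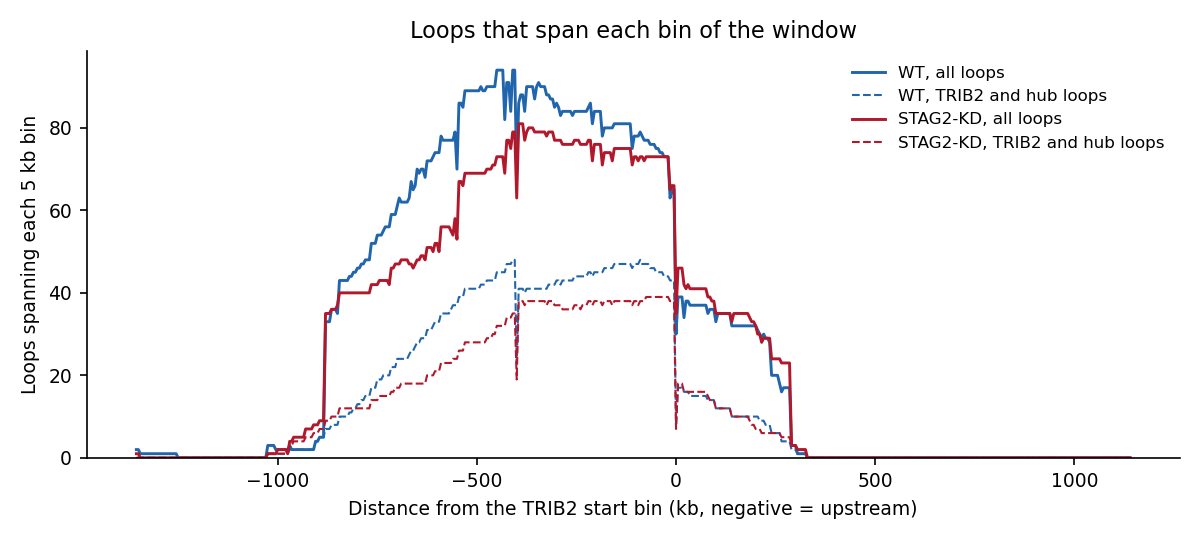
Loops spanning each 5 kb bin (vertical axis) by distance from the TRIB2 bin in kb, for all loops (solid) and the loops of the TRIB2 start and hub anchor (dashed), in WT (blue) and STAG2-KD (red). From -845 to -20 kb the WT line is never below the STAG2-KD line and it reaches 94 against 81. Both lines are at 0 directly beyond the edges of the range. At the upstream end of the window, at -1355 kb, the WT line is at 2 and the STAG2-KD line at 1.

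Loops of the pair made up 41.5% of the window's loops in WT and 46.9% in STAG2-KD. The remaining loops of the window numbered 121 in WT and 86 in STAG2-KD, so STAG2-KD had 71.1% of the WT number, against 88.4% for the loops of the pair. The window as a whole had 78.3%. Of the WT loops in the window 43.5% were shared (36.6 to 50.5), and of the STAG2-KD loops 55.6% (47.6 to 63.4).

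A few anchors carried most of this region. Anchors with at least 10 loops in a list numbered 9 of the 108 anchors in the window, and 89.9% of WT and 90.1% of STAG2-KD loops had one of them at an end. Of the 36 pairs among these 9, 3 were closer than 20 kb, the shortest distance in the lists. Of the other 33 pairs, 28 were looped in both lists, 3 in WT alone, 1 in STAG2-KD alone and 1 in neither. The main anchors were thus almost completely joined to each other in both states. They were chosen by their loop numbers in these same lists, which favours such joining, and no other set of anchors was compared. TRIB2 was joined in both lists to each of the 7 main anchors that were at least 20 kb away.

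**Figure D4:**
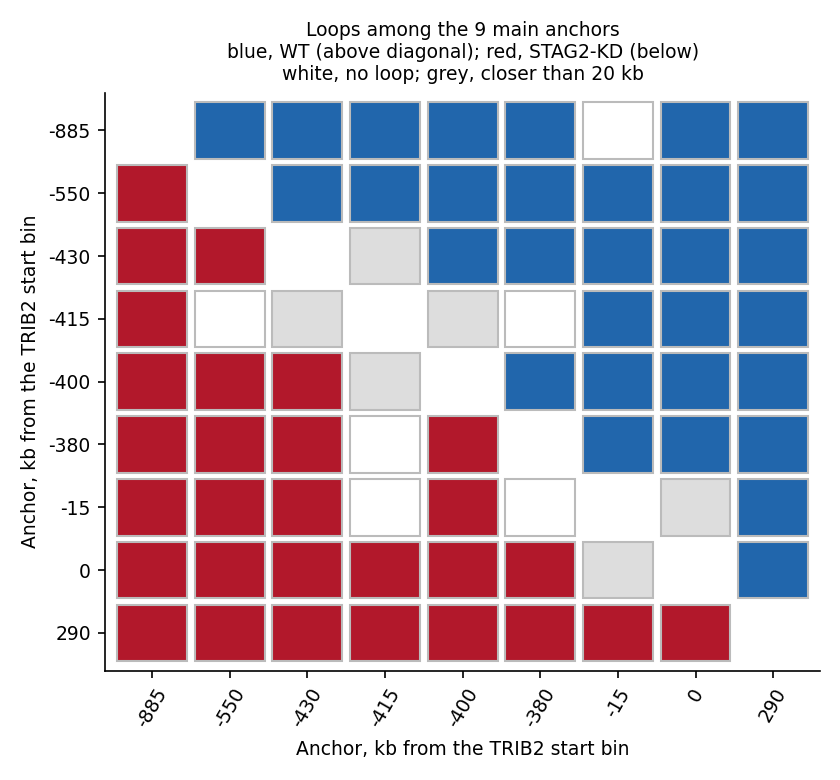
Loops among the 9 anchors with at least 10 loops in a list, each labelled by its distance from the TRIB2 bin in kb, with WT above the diagonal and STAG2-KD below it. Filled squares are loops, white squares no loop and grey squares pairs closer than 20 kb, and 28 of the 33 pairs that are far enough apart are filled on both sides.

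Of the 9 main anchors, 8 had fewer loops in STAG2-KD than in WT and 1 had more. The bins from 12440001, 12475001 and 12840001 reached 10 loops in WT alone, and no main anchor did so in STAG2-KD alone. The limit thus drew on these same counts, and the split is a description. For comparison, STAG2-KD had 78.3% of the WT loop number in the window and 93.9% in the complete lists. The MIR3681HG start bin from 11970001 had 28 loops in WT and 26 in STAG2-KD, and 16 of them were shared. The bin from 12305001 had 25 and 19. In numbers of loops, the largest drops among the 9 lay beside the hub anchor, in the bin from 12425001 with 22 loops in WT and 12 in STAG2-KD and in the bin from 12440001 with 17 and 6. The bin from 12475001, on the other side of the hub anchor, had 12 and 6, and its 6 STAG2-KD loops were all in the WT list. The bin from 12840001, 15 kb upstream of TRIB2, had 12 and 9.

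The main anchor with more loops in STAG2-KD was the bin from 13145001, at a start of ENSG00000225649, with 14 loops in WT and 20 in STAG2-KD. All of its partners were upstream. Of its WT loops 12 were shared and 2 were WT-only, and 8 loops were STAG2-KD-only. Its median distance was 680 kb in both lists. The STAG2-KD-only partners ran from 11880001, in LPIN1, to the bin from 12995001.

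**Figure D5:**
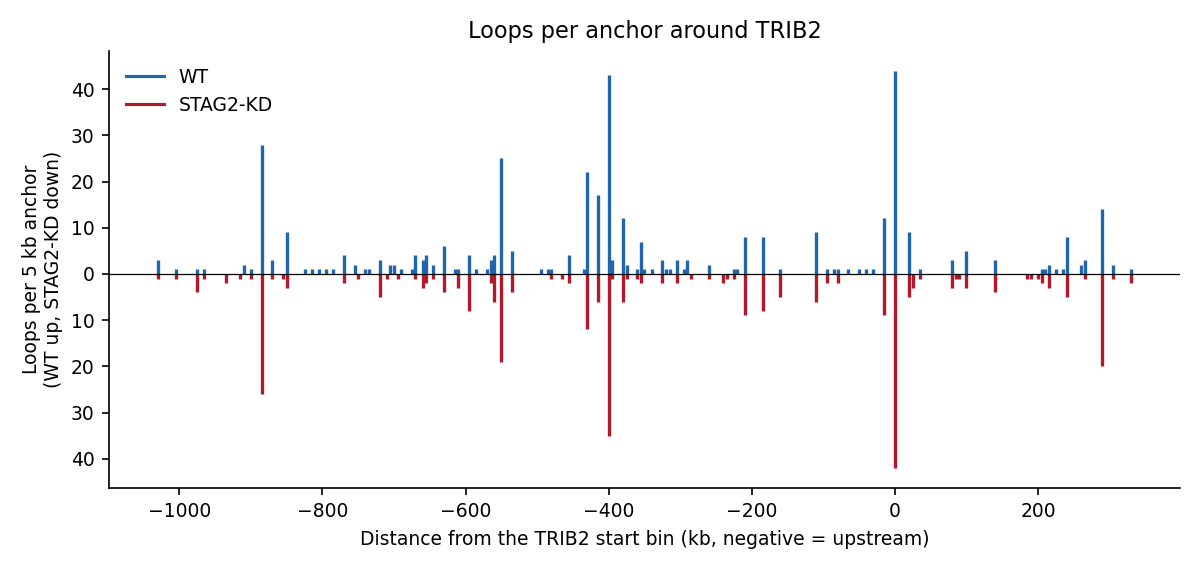
Loops per 5 kb anchor (vertical axis), WT upward in blue and STAG2-KD downward in red, by distance from the TRIB2 bin in kb. The highest lines are the TRIB2 start at 0 kb and the hub anchor at -400 kb, and the anchor at 290 kb is the main anchor with a longer red line, at 20 against 14.

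Protein-coding genes other than TRIB2 had few loops in the window. LPIN1, which encodes lipin 1, a phosphatidate phosphatase of lipid synthesis, lies at the upstream end of the range from 11817721 to 11967535. It had 1 loop at its annotated starts in WT, from the bin at 11955001 to the hub anchor, and 4 in STAG2-KD. These 4 joined the bin from 11920001 to the hub anchor and to the bin from 13145001, the bin from 11940001 to the hub anchor and the bin from 11955001 to TRIB2, and 0 of the loops were shared. The other protein-coding genes that start in the window lie outside the range. GREB1, an estrogen-regulated gene, and NTSR2, a neurotensin receptor gene, had 0 loops at their starts in both lists, and E2F6, a repressor of the E2F family, had 1 in WT and 0 in STAG2-KD.

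MIR3681HG, whose annotated starts are spread over the region, had 39 loops at its starts in WT and 34 in STAG2-KD, 21 of them shared. Most of these belonged to its first start bin. ENSG00000225649 had 14 and 20, at the bin described above. MIR3125, a microRNA gene inside TRIB2, lies in the bin from 12875001, which had 9 loops in WT and 5 in STAG2-KD.

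The strict consensus core of the CTCF motif was searched on both strands, because CTCF sites often mark loop ends. It occurred in 4.13% of the 30601 anchors and in 1.73% of the 5 kb bins of chromosome 2. None of the 80 bins made up of the pair and their partners held it. A count of 0 of 80 allows a share of up to 3.75%, taken as 3 bins, which is an approximate one-sided limit. The upper end of the exact two-sided 95% interval was 4.51%. All anchors, at 4.13%, lie between these limits, so the share was not shown to be below theirs. The range held 4 matches outside these bins, 2 in LPIN1 and 2 in MIR3681HG. Each of the 4 lay in a bin directly beside a partner bin. Those in LPIN1 stood on either side of the bin from 11920001, and the others beside the bins from 12550001 and 12825001. The count by bin therefore does not place the core letters away from the partners. The nearest match beyond the upstream edge was 8.10 kb away and the nearest beyond the downstream edge 365 kb away. These 6 matches are printed 5′ to 3′ on the strand of the motif, with the core in capitals, to show where the core letters stand relative to the anchors.
chr2:11816890-11816901, minus strand, upstream of the range: cctgtaatcCCAGCAGGTGGCctctaggaa
chr2:11919484-11919495, minus strand, in LPIN1: ctcctccggCCACCAGGGGGCagggaagcg
chr2:11925225-11925236, minus strand, in LPIN1: gaccggcggCCACCAGAGGGCgcccgcgcg
chr2:12556883-12556894, plus strand, in MIR3681HG: aagtgggtgCCAGCAGGGGGCagcttggga
chr2:12821150-12821161, minus strand, in MIR3681HG: ctactcttcCCAGCAGGTGGCagggccctc
chr2:13555308-13555319, plus strand, downstream of the range: ctttagattCCACCAGATGGCtagctggta
A match is a match of letters and no measured binding site, and weaker forms of the motif were not searched.

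The digestion that precedes ligation used MboI, which cuts at GATC, so the number of such sites sets how many ends a bin can give. The TRIB2 bin had 20 GATC sites and the hub anchor had 17, against a median of 14 over all anchors. Fewer sites were found in 89.2% of anchors for the first and in 71.8% for the second. The bin from 12840001, with 9 sites, had fewer than most anchors and still had 12 loops in WT. The part of site number in the loop counts was not tested.

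Across the genome, 0 of 19219 other protein-coding genes had more loops at their starts than TRIB2 in either list. TRIB2 was chosen by its loop number in these lists, so this rank restates the choice. The genes with the closest numbers, by the sum of the absolute differences in WT, STAG2-KD and shared loops, were VPS13D, a lipid transfer protein gene, with 37 loops in WT, 26 in STAG2-KD and 20 shared, and SRRT, an RNA-processing gene, with 26, 25 and 17. They were followed by the transcription factor gene MYC with 26, 27 and 14, ZNF217 with 27, 24 and 13, and the actin regulator gene ARPC1A with 24, 23 and 12. The differences from TRIB2 summed to 30 for VPS13D and 54 for ARPC1A, so even the closest gene was well below TRIB2. These numbers cover all start bins of a gene, whereas the TRIB2 starts share a single bin. For VPS13D they cover several bins, because no anchor outside the pair had over 34 loops in WT. This likeness rests on 2 lists.

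Loops at genes linked to Tribbles function were counted for a list of 14 genes. Of these, 9 had a loop in a list, against 8561 of the 19219 other protein-coding genes. More loops in WT were found at 5 of them and more in STAG2-KD at 4, where all genes had 3721 and 2948. The paralog TRIB1 carried 12 loops in WT and 17 under knockdown, 9 of them in both lists, and TRIB3 had 1 and 0. STK40, a related pseudokinase gene, had 7 and 11 with 5 shared. FOXO3, a forkhead factor held back by TRIB2, had 7 and 3 with 0 shared, and the ubiquitin ligase gene SMURF1 had 5 and 0. CEBPB had 2 and 4, MAP2K1, which encodes MEK1, 2 and 1, CTNNB1 3 and 1 and TCF7L2 0 and 3. COP1, BTRC, CEBPA, FOXO1 and AKT1 had 0 in both lists.

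The cell type was looked at through loops at marker genes of the melanocyte lineage. SOX10 had 4 loops in each list, MITF 7 in WT and 2 in STAG2-KD, PMEL 7 and 4, MLANA 3 and 5, DCT 3 and 0 and TYR 0 in both. Of markers of other cell types, the keratinocyte gene KRT14 had 2 in each list, and KRT5 and the leukocyte gene PTPRC had 0. STAG2 itself lies on chromosome X, for which the lists hold no loops, so the knockdown could not be checked in these files.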

How the data were processed

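Samples were grouped by their titles into 2 WT and 2 STAG2-KD samples of M14 cells. MboI digestion, alignment to hg19 by HiC-Pro, peak calling by hichip-peaks and loop calling by FitHiChIP were done by the authors. Versions, and whether a list merges both replicates, are not given in the sources used here. The deposited lists give, for each loop, a chromosome and the outer positions of its 2 anchors, on a 5 kb grid, with no count or score, so the depth behind a loop is unknown.

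Each anchor was read as 5 kb, and positions are printed counted from 1. No anchor ended past its chromosome in the GRCh37 sequence. Distances are between anchor midpoints. GENCODE release 44, lifted to GRCh37, gave the genes. Shares carry 95% exact Clopper-Pearson intervals. Matching and clustering functions were tested on simulated data. Python 3.11.15, numpy 2.4.6, scipy 1.17.1 and matplotlib 3.10.9 were used.

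The members, the gene lists and the alternatives were chosen with earlier results of these data known. Named genes were TRIB2, genes that start in partner bins or in the window, the 5 genes closest to TRIB2 in loop numbers, and the 2 lists given in the text. PECAM1, a listed marker, was not matched in the annotation. The main anchors and clusters described one by one were chosen after their values were seen.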

Additional observations from a re-analysis of the deposited data

How the results depend on the processing

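No paired analysis was possible because only 1 list of loops was analysed per group, so leaving out a replicate was not possible either. No group difference could be tested, and a loop absent from a list may lie just short of the caller's limit. All alternatives were planned. Counting the direct neighbour bins, or protein-coding starts alone, moved no value by over 1.5 times. At TRIB2 these alternatives could change nothing, because all its starts share the same bin and the bins directly beside it held 0 loops. With distances of at most 500 kb, TRIB2 had 25 loops in WT, below its 28 in STAG2-KD, because more long WT loops were left out. Among the earlier 50% of chromosome 2 lines, the hub anchor had 38 loops in WT and 21 in STAG2-KD, and the cause was not tested. With each anchor within 2 bins, 53.6% of WT loops in the window were shared, and 70.4% of STAG2-KD loops after 64.2% within 1 bin, since more loops can match. Joining partner bins up to 20 kb apart left 20 clusters by construction, none of them reached in 1 list alone.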

Other observations

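The anchor from 13095001 to 13100000, 240 kb downstream of TRIB2 within ENSG00000225649, exchanged all of its partners. It had 8 loops in WT and 5 in STAG2-KD, and 0 were shared. By the same criterion, 62.0% of all WT loops and 59.5% of all STAG2-KD loops were private. How many other anchors with similar loop numbers shared 0 was not counted. All of its partners lay upstream. In WT they included TRIB2 and the hub anchor, and in STAG2-KD they included the bins from 11970001 and 12305001 but neither anchor of the pair. Its median distance was 422 kb with WT loops and 790 kb with STAG2-KD loops. This anchor was chosen after its values were seen, and the exchange was not tested.

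The order of lines in the lists is not explained in the sources used here. Of the chromosome 2 lines, the median position was 8.85% for TRIB2 in WT and 5.85% in STAG2-KD. For the hub anchor it was 12.3% in WT and 33.5% in STAG2-KD, where the last loop stood at 97.3%.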
